A study of Mus musculus with 6 samples.

Results

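Imprinted genes are expressed mainly from the chromosome copy inherited from 1 parent. The 33 genes described here were listed by symbol as a network tied to stem cell quiescence, and the list used no measured value. Each was matched through the Entrez Gene number of its probe set. Of the 33, 32 were among the 23185 named genes of the array, and Zrsr1 was not analysed here. The list held 14 genes with a maternally expressed copy and 19 with a paternally expressed copy, as generally described in mouse.

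In mammals the silent copy of an imprinted gene is set by DNA methylation laid down in the germ line, at control regions that often govern a whole cluster of genes. Many paternally expressed genes promote fetal growth, whereas many maternally expressed genes restrain it. In adult blood stem cells several imprinted genes, among them H19, Cdkn1c and Ndn, have been tied to the maintenance of a resting state. An expression array measures both parental copies together, so nothing below bears on which copy was expressed.

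RNA was taken from haematopoietic stem cells (HSCs) freshly isolated from the bone marrow of young adult mice, and sorted by the surface phenotype CD150+CD48-LSK (lineage-negative, Sca-1+, c-Kit+). The groups were Merit40-/- mice (3 arrays) and wild-type (WT) mice (3 arrays), with no other allele and no treatment in the labels. Merit40 is the gene now called Babam1, and its protein is a subunit of the BRCA1-A and BRISC deubiquitinating complexes. The labels give neither the construction of the allele, nor the strain and sex, nor the number of mice behind an array. The labels call the 3 arrays of a genotype biological replicates, and the p-values measure the spread between them.

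The array values were RMA log2 levels, and each difference below is Merit40-/- minus WT on that scale. Array medians lay between 4.91 and 4.97, and Pearson's r across genes was 0.984 to 0.985 within Merit40-/-, 0.987 to 0.988 within WT and 0.985 to 0.988 between genotypes. Babam1 had levels of 4.29, 3.87 and 4.01 in Merit40-/- HSCs, against 7.91, 8.04 and 8.05 in WT HSCs. It fell by 3.94 (SE 0.14, limma adjusted p = 5.04e-05; exact permutation p = 0.1, the smallest that 3 arrays against 3 can give). All 12 measured HSC markers of 14 listed lay above the receptor mark of low signal, defined in the next paragraph, on every array. Markers of other cells also gave signal on all arrays. Of 13 listed granulocyte and monocyte markers 12 were measured, and 11 or 12 lay above the receptor mark on each array. Their mean was 8.22 to 8.78 on the Merit40-/- arrays and 8.30 to 8.63 on the WT arrays. What part RNA of such cells had in the levels below was not tested. Single arrays stood apart in markers of further cell types. The mean level of 20 skeletal muscle markers was 7.16 in Merit40-/- replicate 1, against 4.61 to 4.77 on the other Merit40-/- arrays and 4.63 to 4.68 on the WT arrays. The mean of 9 osteoclast markers was 5.61 in Merit40-/- replicate 3, against 4.51 to 4.53 on the other Merit40-/- arrays and 4.33 to 4.48 on the WT arrays. Ctsk (7.94) and Acp5 (7.91) rose most on that array. Mmp9, Oscar, Ocstamp and Atp6v0d2 were also highest there, while Calcr, Dcstamp and Nfatc1 were not. The mean of the 9 measured erythroid markers was highest in WT replicate 1, at 7.54, with 6.67 to 7.02 on the Merit40-/- arrays and 6.82 to 6.97 on the other WT arrays. Epor, Car2 and Rhag were not highest on that array, while the other erythroid markers were.

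Many imprinted genes gave a clear signal in WT HSCs. Probe sets differ in response, so a level was only set against 2 marks of low signal, and levels of different genes are not ranked as amounts of RNA. The first mark was the median of all genes, 4.93. The second was 4.58, the 95th percentile of 1354 olfactory and vomeronasal receptor genes, which are taken to be silent in blood cells and whose median was 2.96. In WT HSCs 19 of the 32 measured imprinted genes lay on or above the first mark, between 5.02 and 10.98. Another 3, Dlk1, Plagl1 and Nap1l5, lay between the marks. The remaining 10, namely H19, Igf2, Ascl2, Rian, Magel2, Zim1, Peg3, Asb4, Mest and Rasgrf1, lay between 3.06 and 4.21, below the receptor mark. In all, 68.8% of the imprinted genes were above the receptor mark, against 54.6% of all genes.

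**Figure D1:**
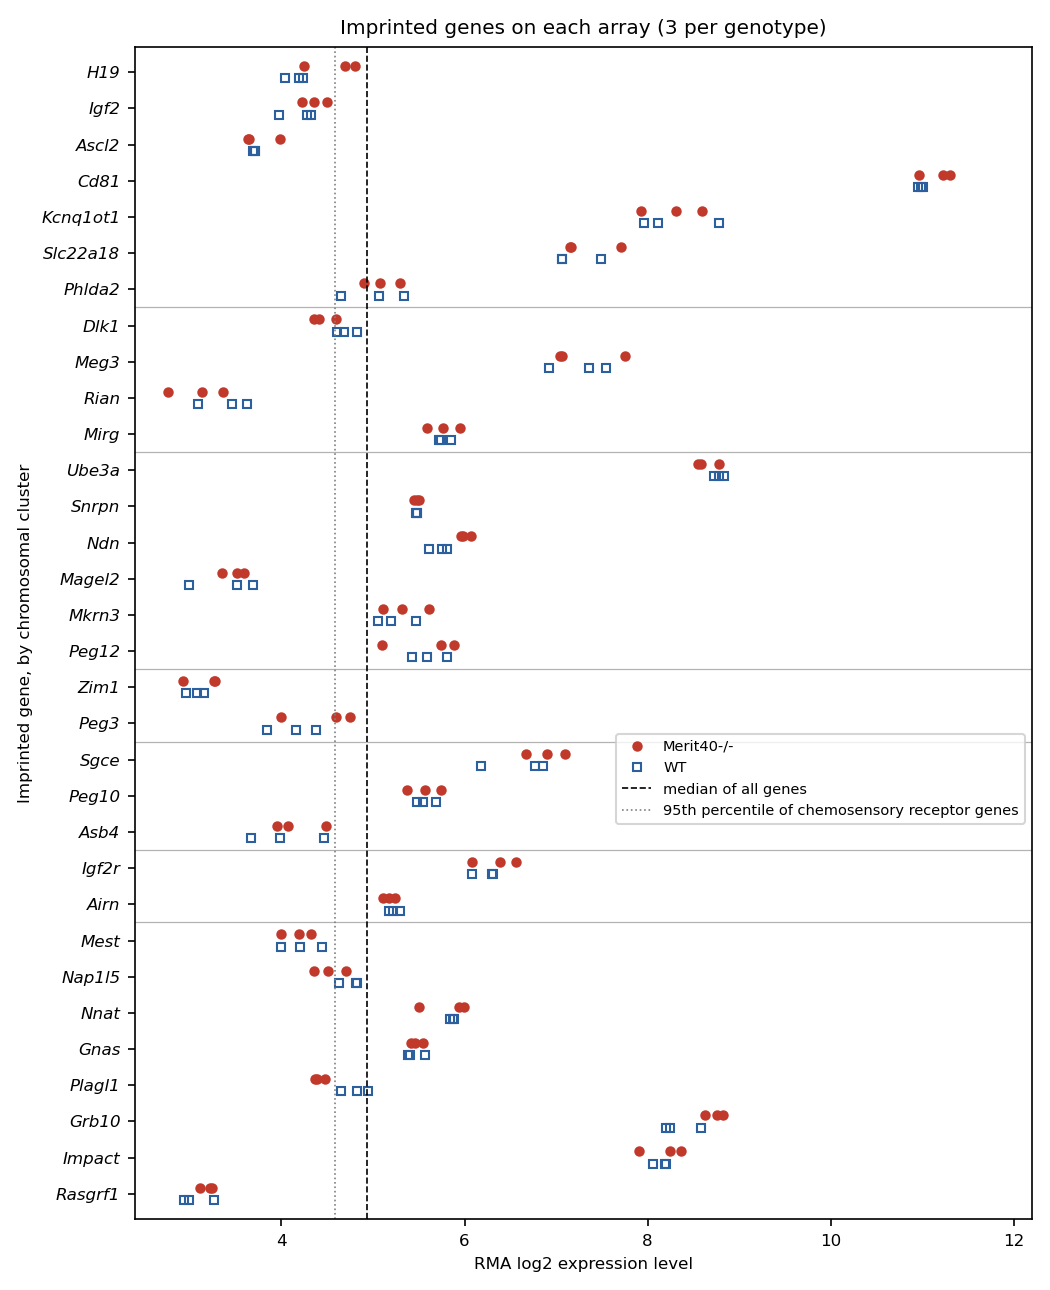
RMA log2 level (horizontal axis) of 32 imprinted genes, grouped by chromosomal cluster, on 3 Merit40-/- arrays (filled red circles) and 3 WT arrays (open blue squares). The dashed line is the median of all genes (4.93) and the dotted line the 95th percentile of chemosensory receptor genes (4.58); Cd81 lies near 11 on all arrays, and the genotypes are apart by less than 1 log2 unit for every gene.

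No imprinted gene passed the test between genotypes. Of 32, 0 were called by limma, against 1 of 23185 genes, Babam1 itself (0.00431% of all genes). The smallest adjusted p among the imprinted genes was 0.999. At an unadjusted p under 0.05 there were 4, namely Plagl1 (0.0124), Grb10 (0.0212), H19 (0.0314) and Ndn (0.0407), where 4.22% of all genes passed. A linear model without moderation also called 0. Differences ran from -0.39 to 0.43 with a median of 0.038, where the median of all genes was 0.005. Of the 32, 20 were higher in Merit40-/- and 12 lower, so 62.5% were higher, against 51.5% of all genes. The median size of a difference was 0.111 for imprinted genes and 0.107 for all genes.

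The arrays nevertheless bounded the differences. The 95% interval of every one of the 32 imprinted genes lay within a 2-fold change in either direction, as it did for 96.4% of all genes, and the interval end farthest from 0 corresponded to 1.79-fold. The median half-width of an interval was 0.33 for imprinted genes and 0.34 for all genes. RMA compresses differences near background, so the bound says least for the 10 genes of lowest signal. For 5 imprinted genes the Merit40-/- and WT arrays did not overlap, with H19, Grb10 and Ndn higher in Merit40-/- and Plagl1 and Dlk1 lower. That is 15.6% of the 32, where 9.05% of all genes showed no overlap (4.84% higher and 4.22% lower). Without the Merit40-/- array that stood apart in muscle markers, 7 imprinted genes had non-overlapping arrays (19.6% of all genes did), and without the one that stood apart in osteoclast markers 9 did (19.5% of all genes), with 0 called in each case. In bulk RNA, fewer cells that express a gene and less of its RNA per cell cannot be told apart.

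**Figure D2:**
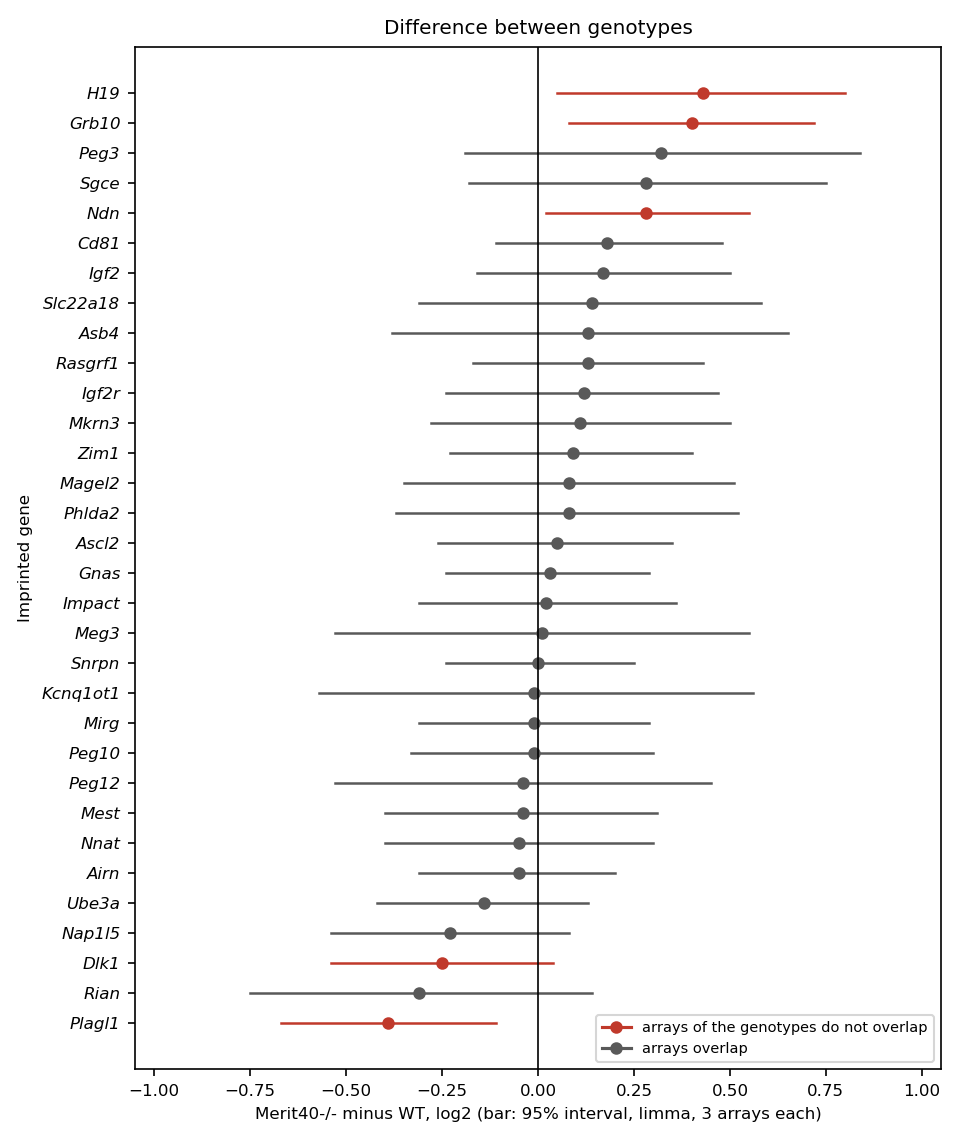
Difference in log2 level, Merit40-/- minus WT (horizontal axis), for 32 imprinted genes, with bars for the 95% interval from limma with 3 arrays per genotype. Red marks the 5 genes with no overlap between Merit40-/- and WT arrays; the differences run from 0.43 (H19) to -0.39 (Plagl1), and every bar ends within 1 log2 unit of 0.

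The first group of genes acts in insulin-like growth factor (IGF) signalling. H19 is a maternally expressed long non-coding RNA whose control region it shares with Igf2, a paternally expressed fetal growth factor. H19 had levels of 4.80, 4.25 and 4.69 in Merit40-/- HSCs, against 4.19, 4.04 and 4.24 in WT HSCs. Merit40-/- replicates 1 and 3 were high, while Merit40-/- replicate 2 exceeded the highest WT array by 0.013, and all WT arrays lay below both marks of low signal. The means were 4.58 ± 0.29 in Merit40-/- and 4.16 ± 0.11 in WT (SD, n = 3 each), with a difference of 0.43 (SE 0.16, 95% interval 0.05 to 0.80, limma adjusted p = 0.999). The Merit40-/- replicates with the higher H19 levels were the same ones that stood apart in muscle and osteoclast markers. Of the 20 muscle markers, 17 lay above the receptor mark in Merit40-/- replicate 1 and 11 on each other Merit40-/- array, against 10 or 11 on the WT arrays. Acta1, skeletal muscle actin, had 10.42 in Merit40-/- replicate 1 and 5.42 to 6.35 on the other Merit40-/- arrays, against 5.34 to 5.79 on the WT arrays. Not all muscle markers were highest in Merit40-/- replicate 1, the exceptions being Myh2, Tnnt1, Mb and Ryr1. Of the 9 osteoclast markers, 5 lay above the receptor mark in Merit40-/- replicate 3 and 4 on each other Merit40-/- array, against 3 or 4 on the WT arrays. The difference of H19 was 0.32 without Merit40-/- replicate 1, 0.37 without replicate 3 and 0.59 without replicate 2 of that genotype. Whether RNA of muscle or osteoclasts had a part in the H19 values was not tested.

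Igf2 itself had levels of 4.22 to 4.50 in Merit40-/- and 3.97 to 4.32 in WT, below both marks on every array. Igf2r, the maternally expressed receptor that clears IGF2 from the cell surface, had 6.56, 6.39 and 6.08 in Merit40-/- and 6.31, 6.30 and 6.08 in WT, with overlapping arrays and a difference of 0.12 (SE 0.15). That difference was 0.0065 without Merit40-/- replicate 1, which stood apart in muscle markers, and 0.25 without Merit40-/- replicate 3, which stood apart in osteoclast markers. Airn, the paternally expressed antisense RNA that silences Igf2r in cis, had 5.24, 5.17 and 5.11 in Merit40-/- and 5.22, 5.17 and 5.29 in WT, and its 6 arrays spanned only 0.18. Both genes of this pair were thus above the median of all genes in both genotypes.

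Grb10 encodes an adaptor that dampens insulin and IGF1 receptor signalling, and it is expressed from the maternal copy in most tissues. It had levels of 8.76, 8.63 and 8.82 in Merit40-/- HSCs, against 8.20, 8.25 and 8.58 in WT HSCs. All Merit40-/- arrays lay above all WT arrays, the nearest pair being 0.056 apart, with WT replicate 3 close to the Merit40-/- arrays. The means were 8.74 ± 0.10 in Merit40-/- and 8.34 ± 0.20 in WT (SD, n = 3 each), a difference of 0.40 or 1.32-fold (SE 0.14, 95% interval 0.08 to 0.72, limma adjusted p = 0.999). Of the 5 non-overlapping genes, Grb10 and Ndn were the ones that lay above the median of all genes in both genotypes.

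Of the 15 partners of this axis that were listed (receptors, ligands, binding proteins and receptor substrates), 14 were measured. By limma 0 were called and 0 had an unadjusted p under 0.05, where 4.22% of all genes did. Non-overlapping arrays were found for 0, where 9.05% of all genes had them, so with 14 genes these counts say little. In Merit40-/- 5 were higher and 9 lower, where 51.5% of all genes were higher, and the median difference was -0.016. Igf1r, the receptor for IGF1 and IGF2, had 8.66, 8.14 and 8.38 in Merit40-/- and 8.27, 8.45 and 8.44 in WT, with a difference of 0.00 (95% interval -0.35 to 0.36). The differences of the partners ran from -0.25 for Igf1 (6.60, 6.81 and 7.05 in Merit40-/-; 7.0, 7.06 and 7.14 in WT) to 0.33 for Igfbp1, which lay below both marks.

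Promoter sequence was not used in listing the genes. RefSeq promoter windows (build GRCm38.p6, 300 bases, from 250 before to 50 after the start) were matched by Entrez Gene number. This gave 42 windows for 28 of the 32 measured genes, and none was used for H19, Sgce, Impact and Peg10. The median CpG count of the 42 was 13 per window, against 7 over all 32851 windows, and their median GC content was 56.5%, against 52.7%. The letters TGCCGC, the site that the imprint-protecting protein ZFP57 binds when methylated, were searched on both strands. They occurred in 10 of 42 windows (23.8%), against 11.6% of all windows. The 10 include overlapping windows of Mest, so they are not all separate sites. The letters themselves hold a CpG, and what part the higher CpG count had in the share was not tested. The letters GCCATNTT of the YY1 motif occurred in 2 (4.76%), those of Mkrn3 and Ube3a, against 6.05% of all windows. The windows of the 3 genes with an unadjusted p under 0.05 that had one are shown, in lower case, with each TGCCGC match (here on the other strand, as GCGGCA) in capitals. The 2 starts of Grb10 are shown to compare a window of 45 CpG with one of 9.
Grb10, chr11:12037371-12037670, minus strand: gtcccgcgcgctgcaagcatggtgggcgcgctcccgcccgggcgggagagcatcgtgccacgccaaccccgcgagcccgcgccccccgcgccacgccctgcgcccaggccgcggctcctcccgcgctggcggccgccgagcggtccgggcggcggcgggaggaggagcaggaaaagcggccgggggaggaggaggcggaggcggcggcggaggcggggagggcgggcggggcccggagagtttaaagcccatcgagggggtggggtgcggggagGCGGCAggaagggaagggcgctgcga
Grb10, chr11:12027922-12028221, minus strand: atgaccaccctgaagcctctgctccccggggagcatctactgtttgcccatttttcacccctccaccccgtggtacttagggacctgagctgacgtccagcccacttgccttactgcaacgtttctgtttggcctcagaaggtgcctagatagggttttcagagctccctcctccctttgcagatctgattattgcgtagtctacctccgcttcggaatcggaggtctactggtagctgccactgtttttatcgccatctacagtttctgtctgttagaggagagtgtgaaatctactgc
Plagl1, chr10:13090582-13090881, plus strand: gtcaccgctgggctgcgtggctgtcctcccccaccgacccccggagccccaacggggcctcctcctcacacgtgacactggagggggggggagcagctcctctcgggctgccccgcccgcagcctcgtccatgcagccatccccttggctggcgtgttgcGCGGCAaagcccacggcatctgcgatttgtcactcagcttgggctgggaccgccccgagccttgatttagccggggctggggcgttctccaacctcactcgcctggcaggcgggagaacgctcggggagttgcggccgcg
Ndn, chr7:62348027-62348326, plus strand: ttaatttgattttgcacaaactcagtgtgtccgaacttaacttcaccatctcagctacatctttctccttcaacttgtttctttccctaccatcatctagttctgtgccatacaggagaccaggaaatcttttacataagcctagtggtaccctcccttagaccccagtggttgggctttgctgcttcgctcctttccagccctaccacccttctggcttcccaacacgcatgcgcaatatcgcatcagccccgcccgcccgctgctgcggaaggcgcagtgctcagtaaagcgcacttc
The Plagl1 window had 26 CpG and the Ndn window 11 with no match to either motif. A match describes letters only.

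Plagl1 and Ndn both encode proteins that restrain the cell cycle. Plagl1 (also called Zac1) is a paternally expressed zinc finger transcription factor that acts on other imprinted genes. Its levels were 4.39, 4.37 and 4.48 in Merit40-/- HSCs, against 4.82, 4.94 and 4.65 in WT HSCs. All Merit40-/- arrays lay below all WT arrays, by 0.177 at the nearest, and the Merit40-/- arrays were also below the receptor mark. The means were 4.41 ± 0.06 in Merit40-/- and 4.81 ± 0.14 in WT (SD, n = 3 each), a difference of -0.39 (SE 0.12, 95% interval -0.67 to -0.11, limma adjusted p = 0.999). This was the lowest difference of the 32.

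Ndn encodes necdin, a paternally expressed MAGE family protein that limits the cycling of HSCs in mice. Its levels were 6.07, 5.96 and 5.98 in Merit40-/- HSCs, against 5.61, 5.81 and 5.75 in WT HSCs. The Merit40-/- arrays were all above the WT arrays, by 0.147 at the nearest. The means were 6.01 ± 0.06 in Merit40-/- and 5.72 ± 0.10 in WT (SD, n = 3 each), a difference of 0.28 (SE 0.12, 95% interval 0.02 to 0.55, limma adjusted p = 0.999). Its MAGE family neighbour Magel2 lay between 3.35 and 3.59 in Merit40-/- and between 2.99 and 3.69 in WT, below both marks. Peg3, a paternally expressed zinc finger gene, lay between 4.0 and 4.75 in Merit40-/- and between 3.84 and 4.38 in WT. Its cluster neighbour Zim1, another zinc finger gene, lay between 2.92 and 3.27 in Merit40-/- and between 2.96 and 3.15 in WT. The arrays of both genes overlapped.

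**Figure D3:**
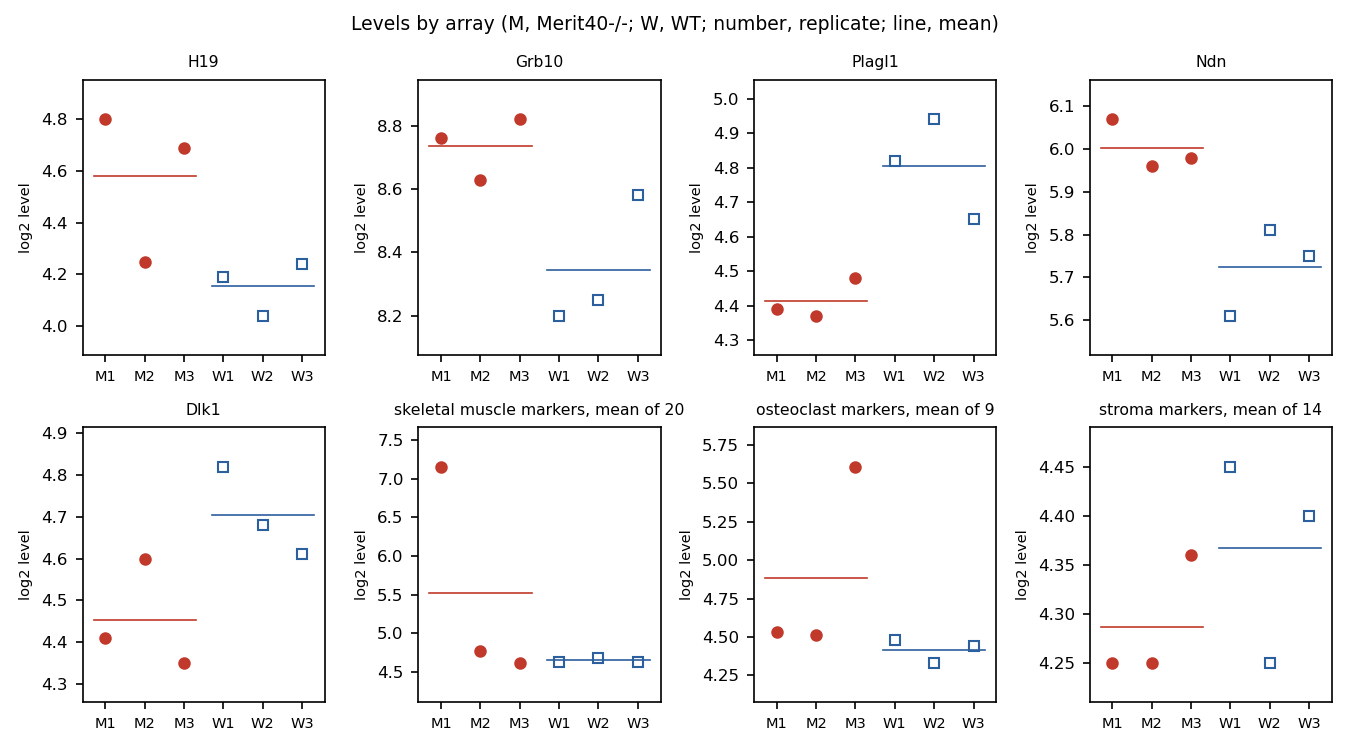
RMA log2 level (vertical axes, each panel on its own scale) of H19, Grb10, Plagl1, Ndn and Dlk1 and the mean level of 3 marker lists on each array, with Merit40-/- replicates M1 to M3 in red, WT replicates W1 to W3 in blue and a line at each mean. Merit40-/- replicate 1 stands apart for muscle markers (7.16) and Merit40-/- replicate 3 for osteoclast markers (5.61).

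The Dlk1-Dio3 cluster on chromosome 12 codes for Dlk1, a paternally expressed transmembrane protein of the Notch ligand family, and for a maternally expressed run of long non-coding RNAs (Meg3, Rian, Mirg), snoRNAs and microRNAs. In mice the maternal run is needed for HSC function. Dlk1 had levels of 4.41, 4.60 and 4.35 in Merit40-/- HSCs, against 4.82, 4.68 and 4.61 in WT HSCs. The arrays did not overlap, but by only 0.009, and they did overlap after each of 3 other scalings, so the order rests on the scaling. Means were 4.45 ± 0.13 in Merit40-/- and 4.70 ± 0.11 in WT (SD, n = 3 each), a difference of -0.25 (SE 0.13, 95% interval -0.54 to 0.04, limma adjusted p = 0.999). Dlk1 is also known in stromal cells, and the mean of 14 measured stromal markers of 15 listed was 4.25 to 4.36 in Merit40-/- and 4.25 to 4.45 in WT. Of those 14, 6 lay above the receptor mark in each genotype, while Lepr, Pdgfra and Adipoq lay below it in both. Among the 6 above it, Cxcl12, a chemokine of marrow stroma, had 5.51, 5.54 and 5.49 in Merit40-/- against 6.64, 5.95 and 5.71 in WT, without overlap (difference -0.59, SE 0.22, limma adjusted p = 0.999). Vcam1, an adhesion molecule, had 4.74, 4.88 and 4.60 in Merit40-/- and 5.26, 5.31 and 4.81 in WT (difference -0.39, SE 0.16, limma adjusted p = 0.999). Pdgfrb, Col1a1, Col1a2 and Acta2, the other 4, had differences from -0.12 to 0.16. Like Dlk1, Cxcl12 was highest in WT replicate 1. The part of stromal RNA in the Dlk1 level was not tested.

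Meg3, the first RNA of the maternal run, had levels of 7.75, 7.07 and 7.04 in Merit40-/- HSCs, against 7.55, 6.92 and 7.36 in WT HSCs. Merit40-/- replicate 1 and WT replicate 1 were its highest arrays, the genotypes overlapped, and the difference was 0.01 (SE 0.23). Mirg, a microRNA host, had 5.95, 5.59 and 5.76 in Merit40-/- and 5.85, 5.72 and 5.74 in WT, a difference of -0.01. Rian, a snoRNA host, lay between 2.76 and 3.36 in Merit40-/- and 3.09 and 3.62 in WT, below both marks. The snoRNA DQ267100 of the same stretch had 6.83, 5.68 and 6.47 in Merit40-/- and 7.36, 6.19 and 7.01 in WT. Both DQ267100 and Meg3 had their highest levels on Merit40-/- replicate 1 and on WT replicates 1 and 3.

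Between Dlk1 and Dio3, 66 genes were measured, among them 51 microRNA genes. Of the 66, 10 reached the median of all genes in WT, 31 were higher in Merit40-/- and 35 lower, and 0 were called by limma (smallest adjusted p 0.999 among the microRNA genes, 4 of which had an unadjusted p under 0.05, where 4.22% of all genes did). The files do not say whether these probe sets read the precursor or the mature RNA. Of the 51, 6 were at or above the median in WT, and 7 (13.7%, against 9.05% of all genes) had non-overlapping arrays, 5 higher in Merit40-/- and 2 lower. Mir329, with the smallest unadjusted p of the 51 (0.00371 by limma), had 5.68, 5.19 and 5.47 in Merit40-/- HSCs, against 6.25, 6.02 and 5.97 in WT HSCs. All WT arrays were above all Merit40-/- arrays, and the difference was -0.63 (SE 0.16, limma adjusted p = 0.999). Mir370 had 3.60, 3.39 and 4.19 in Merit40-/- and 2.99, 2.97 and 3.27 in WT (difference 0.65, SE 0.21, limma adjusted p = 0.999), below both marks on every array. The other 5, Mir495, Mir541, Mir299a and Mir882 (higher) and Mir1197 (lower), lay between 2.49 and 2.88 in WT means. Mir673, with the highest WT mean of the microRNA genes, had 7.08, 6.96 and 6.96 in Merit40-/- and 7.29, 6.80 and 7.16 in WT, and its arrays overlapped.

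The mature RNAs of the 3 genes just described are shown from RefSeq (build GRCm38.p6, chromosome 12, plus strand), with the seed, bases 2 to 8, in capitals.
mmu-miR-329-3p: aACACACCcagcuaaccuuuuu
mmu-miR-329-5p: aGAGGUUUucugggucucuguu
mmu-miR-370-3p: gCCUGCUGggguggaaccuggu
mmu-miR-370-5p: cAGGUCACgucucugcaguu
mmu-miR-673-3p: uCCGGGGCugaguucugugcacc
mmu-miR-673-5p: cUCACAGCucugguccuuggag
All 51 genes had a mature sequence in the table, with 95 names and 88 different seeds, and 7 pairs of names shared a seed. The 6 seeds shown all differ, and of them only that of miR-370-5p is shared within the cluster, with miR-1193-3p. Mir1193 itself had 3.24, 3.17 and 3.45 in Merit40-/- and 3.09, 3.30 and 2.90 in WT, below both marks.

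**Figure D4:**
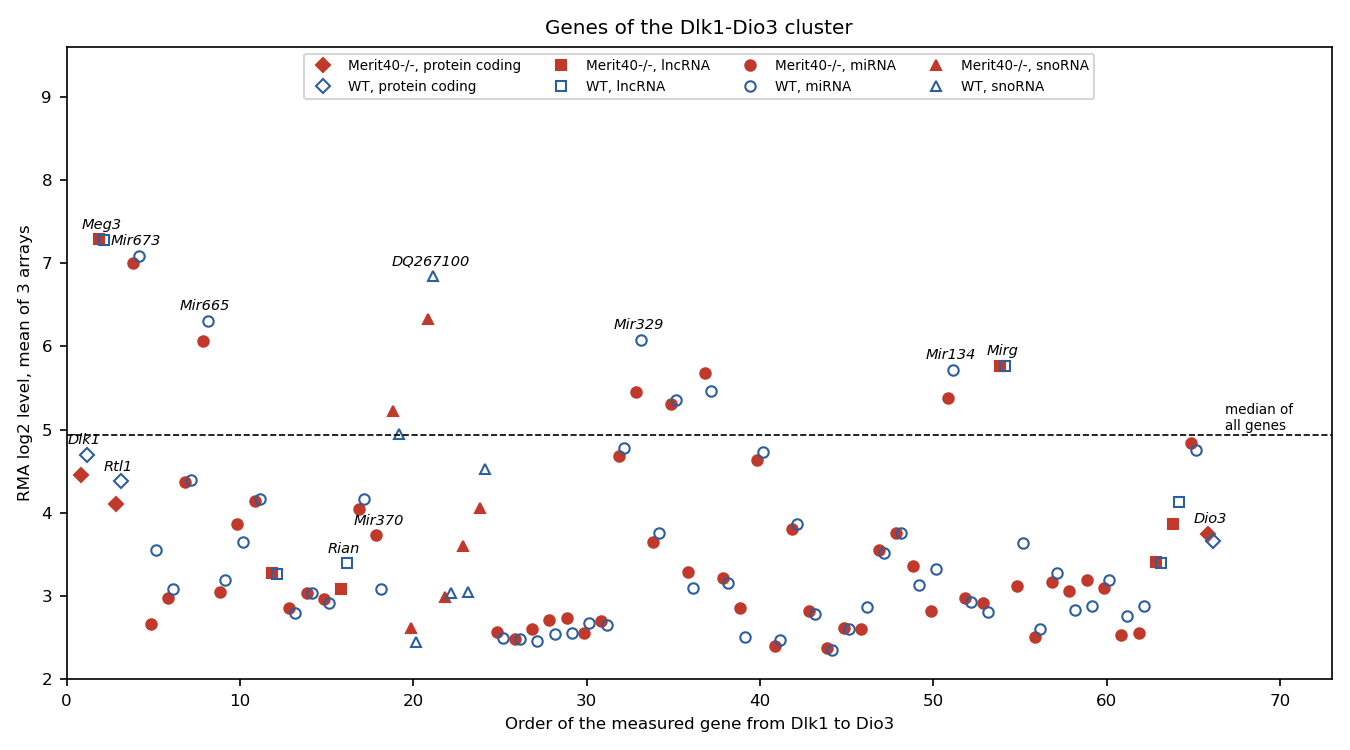
Mean RMA log2 level (vertical axis) of 66 measured genes of the Dlk1-Dio3 cluster, in chromosomal order (horizontal axis), in Merit40-/- HSCs (filled red) and WT HSCs (open blue), by gene class, 3 arrays each. Most microRNA genes lie below the median of all genes (dashed), and Mir329 (5.45 in Merit40-/-, 6.08 in WT) is the named gene with the widest gap above it.

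The H19-Phlda2 stretch of chromosome 7 also holds the Kcnq1 cluster, in which the paternal Kcnq1ot1 RNA silences its neighbours. Kcnq1ot1 had levels of 8.31, 7.93 and 8.59 in Merit40-/- and 8.78, 7.96 and 8.11 in WT, with a difference of -0.01 (SE 0.25) and a wide overlap. Phlda2, which restrains placental growth, had 5.08, 5.30 and 4.90 in Merit40-/- and 4.65, 5.34 and 5.06 in WT. Slc22a18, an organic cation transporter-like gene, had 7.71, 7.16 and 7.15 in Merit40-/- and 7.06, 7.49 and 7.07 in WT. Cd81, a tetraspanin, had 11.30, 10.96 and 11.23 in Merit40-/- and 10.95, 10.99 and 11.01 in WT, a difference of 0.18 (SE 0.13). The arrays of the genotypes overlapped for all 4. Ascl2, a helix-loop-helix factor, lay between 3.63 and 3.98 in Merit40-/- and between 3.69 and 3.71 in WT, below the marks. The cyclin-dependent kinase inhibitor Cdkn1c, maternally expressed from the same cluster and needed for HSC quiescence in mice, had 6.39, 6.08 and 6.29 in Merit40-/- and 6.64, 6.18 and 6.44 in WT (difference -0.17, SE 0.15).

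In the Snrpn cluster of chromosome 7, Ube3a codes for an E3 ubiquitin ligase that is imprinted in neurons. It had levels of 8.78, 8.55 and 8.58 in Merit40-/- and 8.83, 8.73 and 8.78 in WT, a difference of -0.14 (SE 0.12) with overlapping arrays. Snrpn, a small nuclear ribonucleoprotein gene, was the steadiest gene of the list, with 5.45, 5.48 and 5.50 in Merit40-/- and 5.47, 5.48 and 5.48 in WT. Its range over 6 arrays was 0.05, and only 4 of 23185 genes had a smaller one. Mkrn3, a RING finger gene, had 5.11, 5.61 and 5.32 in Merit40-/- and 5.47, 5.20 and 5.05 in WT, and Peg12, a GSK3-binding gene, had 5.10, 5.74 and 5.88 in Merit40-/- and 5.59, 5.43 and 5.81 in WT. Both overlapped widely. Of 23 measured genes of this stretch, 6 were at or above the median in WT and none of its 9 microRNA genes was. Snhg14, the long RNA that runs antisense to Ube3a, had 5.05, 3.78 and 4.20 in Merit40-/- and 3.47, 4.10 and 3.41 in WT, with overlapping arrays and a difference of 0.68 (SE 0.32, limma adjusted p = 0.999). Only Merit40-/- replicate 1, the array that stood apart in muscle markers, lay above the marks of low signal. All its other arrays lay below both marks.

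Among the other genes above that median, Sgce (epsilon-sarcoglycan) had 7.10, 6.90 and 6.67 in Merit40-/- and 6.18, 6.86 and 6.77 in WT, and its 6-array range of 0.92 was the widest of the 32. Its difference was 0.28 (SE 0.20), WT replicate 1 was the low array, and without it the difference was 0.07. Its neighbour Peg10, a retrotransposon-derived gene, had 5.37, 5.74 and 5.57 in Merit40-/- and 5.69, 5.55 and 5.48 in WT. Gnas, which codes for the stimulatory G protein alpha subunit, had 5.46, 5.42 and 5.55 in Merit40-/- and 5.57, 5.40 and 5.38 in WT, a range of 0.18 (822 genes had a smaller one). Nnat, a small membrane proteolipid gene, had 5.99, 5.94 and 5.50 in Merit40-/- and 5.84, 5.88 and 5.87 in WT, with Merit40-/- replicate 3 low. Impact, an inhibitor of GCN2 signalling, had 8.24, 7.91 and 8.37 in Merit40-/- and 8.19, 8.06 and 8.20 in WT. The arrays of the genotypes overlapped for each of these 5 genes. The remaining low-signal genes were given by their range. Asb4, a SOCS box gene, lay between 3.95 and 4.49 in Merit40-/- and between 3.67 and 4.46 in WT. Mest, an alpha/beta hydrolase gene, lay between 4.0 and 4.32 in Merit40-/- and between 3.99 and 4.44 in WT. Nap1l5, a nucleosome assembly protein-like gene, lay between 4.35 and 4.70 in Merit40-/- and between 4.63 and 4.83 in WT. Rasgrf1, a Ras guanine nucleotide exchange factor, lay between 3.11 and 3.24 in Merit40-/- and between 2.94 and 3.26 in WT, so that the arrays of all 4 overlapped. The 10 genes without a value for every array, Igf2, Ascl2, Rian, Magel2, Zim1, Peg3, Asb4, Mest, Nap1l5 and Rasgrf1, had differences from -0.31 to 0.32. Their arrays all overlapped by selection, since any gene with non-overlapping arrays was given by array.

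By the parental copy generally described in mouse, the 14 maternally expressed genes included 11 that were higher in Merit40-/-, with a median difference of 0.081. Which copy was expressed in these HSCs was not measured, and Ube3a, counted here as maternal, is imprinted in neurons. Of the 18 measured paternally expressed genes, 9 were higher and 9 lower, with a median of -0.001. Over all genes 51.5% were higher and the median was 0.005. The gap between maternal and paternal genes was not tested, and no direction for either set is drawn from it. Merit40-/- replicate 1 was the highest array for 10 of the 32 genes (31.2%, against 16.1% of all genes), and WT replicate 1 for 8 (25%, against 14.6%). These were the arrays that stood apart in muscle and in erythroid markers, and the part of such RNA in these counts was not tested. Each of the other arrays was the highest for 2 to 6.

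A further list of 46 imprinted genes was read in the same way. Of the 43 measured, 26 were higher in Merit40-/- and 17 lower, where 51.5% of all genes were higher, and the median difference was 0.025. By limma 0 were called, with 1 at an unadjusted p under 0.05, where 4.22% of all genes passed. Non-overlapping arrays were found for 5 (11.6%, close to the 9.05% of all genes), with Osbpl5, Mcts2, Th and Slc22a2 higher and Commd1 lower. Differences ran from -0.27 for Rtl1 to 0.45 for Osbpl5, an oxysterol-binding protein gene, which had 4.93, 5.0 and 5.34 in Merit40-/- and 4.77, 4.87 and 4.26 in WT. Of 20 listed factors that maintain imprints (DNA methyltransferases, zinc finger proteins and their partners), all were measured. By limma 0 were called and 1 had an unadjusted p under 0.05, where 4.22% of all genes did. In Merit40-/- 4 were higher and 16 lower, with a median of -0.07, where 51.5% of all genes were higher. Their extremes were Ctcfl at 0.24, a germline relative of CTCF, and Dnmt3l at -0.29, a germline cofactor of DNA methyltransferases, and both lay below the receptor mark in WT. Their 4 non-overlapping genes (20%, against 9.05% of all genes) were Ctcfl and Arid4b (higher) and Dnmt3l and Yy1 (lower).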

How the data were processed

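Total RNA of 6 samples was extracted with a miRNeasy kit, amplified with the NuGEN Pico kit and hybridised to Affymetrix Mouse Gene 2.0 ST arrays, per the labels' protocols. The deposited values are log2 levels which the authors computed by RMA in affy according to the submitters' processing notes. RMA corrects background, equalises the distribution of arrays and combines the probes of a set, so overall differences in RNA yield are removed and differences near background are compressed. For the chip definition and genome build, the sources used here give nothing. Of 25206 probe sets, 23185 had 1 gene symbol and 2021 were unnamed here. Precision is limited by the number of arrays.

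The 23185 genes were fitted in R 4.3.3 by limma 3.58.1 (lmFit, then eBayes; only genotype in the model; 2-sided), with Benjamini-Hochberg adjustment over all of them and a threshold of 0.05. The fit was tested on simulated data. Members were listed by symbol, and no measured value was used in listing them. Earlier results of these data were nevertheless known when members and further lists were chosen. Values on every array are given for members that reach the overall median in either genotype, with non-overlapping arrays or with an unadjusted p under 0.05. From each further list the text names the highest and lowest difference, plus Cdkn1c and Igf1r. Further genes, including those of the Dlk1-Dio3 and Snrpn clusters, were chosen after their values were seen. Alternatives were a replicate block, other variance models, array weights, scalings, filters on dim genes and leaving out each array. Zrsr1 was not analysed here.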

Additional observations from a re-analysis of the deposited data

How the results depend on the processing

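Under every alternative that kept the adjusted threshold, 0 imprinted genes were called, and the smallest adjusted p of the 22 genes given by array was 0.965. The number of genes called was 1 throughout, except that the model without moderation called 0 and the unadjusted threshold 979 genes, 4 of them imprinted. The median difference of the imprinted genes was 0.0054 to 0.0686 with 1 array left out (lowest without WT replicate 2, highest without WT replicate 1). Non-overlapping imprinted genes numbered 6 to 11 with 1 array left out (3 arrays against 2, where 16.9% to 19.6% of all genes did not overlap). The highest counts were 11 without Merit40-/- replicate 2 and 9 without Merit40-/- replicate 3. Without the dimmest 50% of genes, 2 of the 19 imprinted genes kept did not overlap, against 8.82% of all genes kept. These were Grb10 and Ndn, while H19, Plagl1 and Dlk1 were among the genes removed and were not tested. Deviations from the genotype mean correlated at -0.048, -0.003 and 0.044 between same-numbered arrays, and at -0.066 to 0.07 between the others. The values thus showed no pairing by replicate number. With 3 arrays a genotype, they cannot tell whether same-numbered samples were handled together. With the replicate block, 1 gene and 0 imprinted genes were called.

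Of the 22 genes, 12 turned sign under some alternative. Meg3 was -0.0155 with array weights. With median centring Kcnq1ot1 was 0.0036 and Mirg 0.0044. With 1 array left out the differences ran from -0.1694 to 0.2411 for Kcnq1ot1, -0.0508 to 0.2754 for Slc22a18, -0.107 to 0.236 for Phlda2, -0.2206 to 0.1486 for Meg3, -0.0984 to 0.0801 for Mirg, -0.0062 to 0.0185 for Snrpn, -0.0241 to 0.2246 for Mkrn3, -0.1952 to 0.198 for Peg12, -0.1039 to 0.08 for Peg10, -0.1416 to 0.1009 for Nnat, -0.0096 to 0.0849 for Gnas and -0.074 to 0.1564 for Impact. The cause was not tested. Without turning sign, the difference of Sgce ran from 0.0731 (without WT replicate 1) to 0.4108, of Igf2r from 0.0065 (without Merit40-/- replicate 1) to 0.246 (without Merit40-/- replicate 3), of Cd81 from 0.114 (without Merit40-/- replicate 1) to 0.2846 (without Merit40-/- replicate 2), of Ube3a from -0.2155 (without Merit40-/- replicate 1) to -0.1001 and of Airn from -0.087 to -0.0216 (without WT replicate 3). H19, Grb10, Ndn, Plagl1 and Dlk1 kept their sign under all alternatives in which they were tested. Their arrays do not overlap between genotypes, so leaving out or weighting arrays could not turn the sign. Nothing is concluded from it. With 3 arrays a genotype, small differences cannot be seen.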
